A study of Mus musculus with 32 samples.

Results

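The mouse genome annotation holds many loci that carry a serial name in place of a gene name: Gm followed by a number for gene models predicted from sequence, and a clone number ending in Rik for transcripts first seen as RIKEN cDNA clones. The transcripts described here are the rows of the count table that have such a symbol (2 symbols set aside) and a mean of at least 10 CPM (the count of a gene scaled by the total of its library) in at least 1 of the 8 groups of libraries. This gave 216 transcripts, 77 with a Gm and 139 with a Rik symbol, out of 26691 rows with such a symbol and 56953 rows in all. Of the rows with such a symbol, 10884 had at least 1 count, and 9220 other genes reached the same limit of 10 CPM. The annotation class was protein coding for 117 of the 216, a long non-coding class (lincRNA, antisense, processed transcript or bidirectional promoter) for 64, pseudogene for 23 and TEC, a class for loci whose transcription awaits experiment, for 12.

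The RNA came from macrophages grown from mouse bone marrow in medium with L929 cell supernatant as the source of M-CSF, the growth factor that turns marrow precursors into macrophages. Per the labels, the marrow donors were 8 to 12 weeks old and were C57BL/6J mice from Janvier or Irg1+/+ and Irg1-/- mice from the Jackson laboratory, and the labels do not say which source gave each wild-type library. Irg1 is the older name of Acod1, the enzyme that makes itaconate in activated macrophages. Libraries labelled wild type (WT) and libraries labelled knockout (KO) were each made from cells left untreated (control), or given 100 nM dexamethasone, 100 ng LPS, or both, for 24 h. Each of these 8 groups has 4 libraries. Nothing in the labels says that the 4 libraries came from separate animals, so p-values reflect only how far these libraries vary, which may be technical. The part of Acod1 that the allele removes is not given in the labels, and Acod1 reads were present in the KO libraries (4992 ± 133 CPM with LPS, against 6479 ± 249 in WT), so the gene count does not check the label.

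LPS, a component of the bacterial outer membrane, switches macrophages through the receptor TLR4 to NF-kB and interferon signalling. Dexamethasone is a synthetic steroid that acts through the glucocorticoid receptor, which raises some genes and holds down many inflammatory ones. Many transcripts with serial names arise beside, inside or opposite a known gene, some host a microRNA, some are copies of a gene inserted elsewhere by reverse transcription, and a share are protein-coding genes whose standard name came later.

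Total counts per library were 17559079 to 25049200, and the 216 transcripts held 0.616 to 0.769% of them. The summed level of 8 macrophage markers was 15200 to 30256 CPM. The summed B cell markers were 99.2 to 107 CPM in WT control libraries, 52.3 to 54.9 with dexamethasone, 0.17 to 0.771 with LPS and 2.83 to 3.76 with both agents. In KO libraries they were 75.5 to 87.2, 41.4 to 50, 0.482 to 1.01 and 1.03 to 1.7 CPM in the same order, and their part in the treatment results was not tested. The other 5 marker lists stayed at or under 17.3 CPM in every library. The column headers name the sequencing lane: all 16 WT libraries are from lane 3, whereas all KO libraries with LPS, all KO libraries with both agents and KO dexamethasone replicate 4 are from lane 2, and the header of KO control replicate 1 says merged and names no lane. Comparisons within WT therefore lie in 1 lane, whereas lane and genotype cannot be told apart by groups alone in the cells given LPS. Levels below are CPM scaled by the trimmed mean of M values, as mean ± SD over n = 4 libraries. Changes are log2 fold changes ± SE from edgeR's quasi-likelihood test over 14427 genes, and a transcript counts as called where the p adjusted over all of them by the Benjamini-Hochberg method is under 0.05.

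The limit of 10 CPM chose the transcripts by their level, and this touches the comparisons. All 8 groups reached the limit for 100 transcripts, only groups with LPS for 44, only groups without LPS for 38, and other mixtures of groups for 34. For the 44 and the 38, part of the LPS difference follows from the choice. On the KO libraries alone 208 of the 216 reached the limit, and on the WT libraries alone 214. Of the transcripts named below, Gm38244, 2010016I18Rik, 4933430I17Rik, Gm14023 and 5830415G21Rik did not reach it on the KO libraries. Gm4332 did not reach it on the WT libraries. Part of their genotype difference in a group that reached the limit follows from the choice. The same holds for a treatment difference that includes such a group. For any other transcript named below, part of a difference can also follow from the choice where only some of the compared groups reached the limit. Just inside the limit were Gm26947 (10.18 CPM in its highest group), 2500002B13Rik (10.09) and 1110008L16Rik (10.05), and just outside were 2810006K23Rik (9.788), Gm13391 (9.746) and Gm21781 (9.719).

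**Figure D1:**
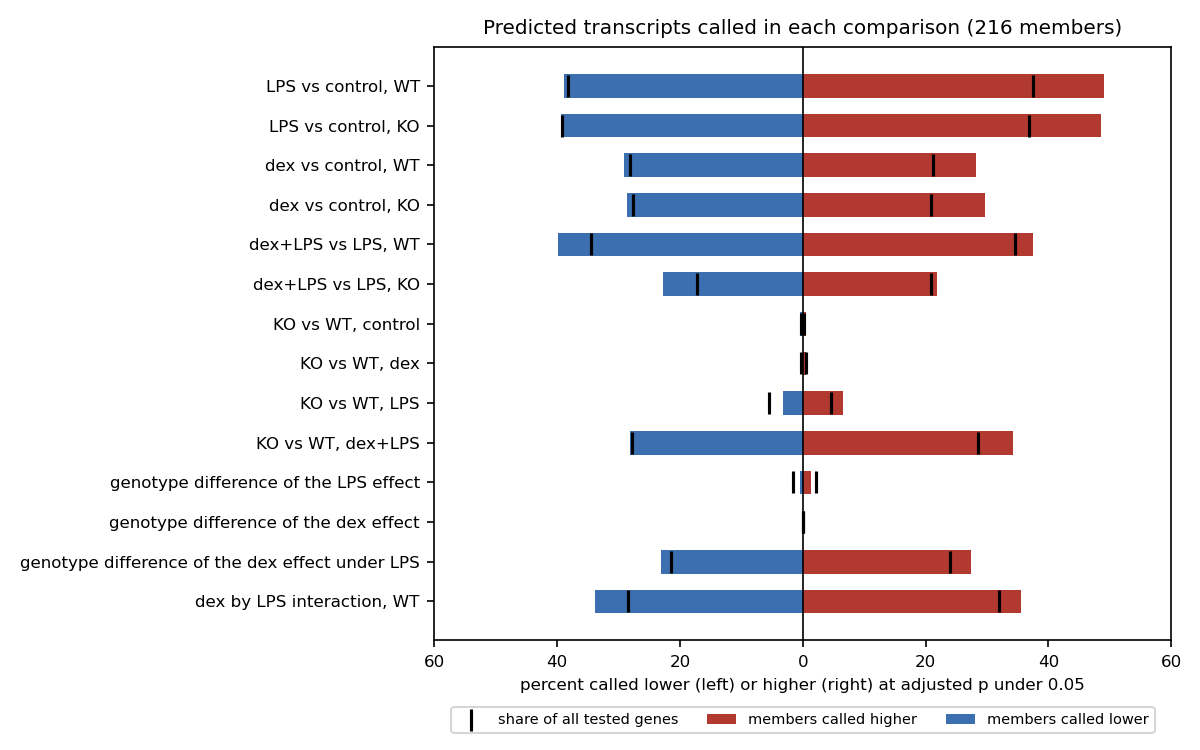
Percent of the 216 transcripts called lower (bars to the left, blue) and higher (bars to the right, red) at an adjusted p under 0.05 in each of 14 comparisons, with black ticks at the share of all 14427 tested genes. The bars for LPS reach 38.9% lower and 49.1% higher in WT, and those for KO against WT without LPS are close to 0.

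In WT cells LPS changed most of these transcripts: 106 rose and 84 fell, 190 of 216 in all, where the background over all tested genes was 75.7% called (37.4% higher and 38.3% lower). The tested genes did not have to reach 10 CPM, so the background is not matched for level, here and in every comparison below. The median change was 0.12, against -0.02 for all tested genes. Changes of at least 2-fold were seen for 50 that rose and 40 that fell (background 15.1% and 17.3%). With the limit of 10 CPM set on the mean over all libraries, 151 transcripts were kept, of which 75 rose and 52 fell. The median size of the LPS change was 1.27 on the log2 scale for the 64 long non-coding transcripts and 1.27 for the 12 TEC transcripts, against 0.52 for the 117 protein-coding ones and 0.60 for the 23 pseudogenes. These medians were not tested against each other. They were taken over all 216, including the 44 and the 38 whose LPS difference follows in part from the choice.

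The steepest rises were from levels at or near 0. Gm16685 (chromosome 3 from 7677765 to 7755061, plus strand) is annotated antisense to Il7, the gene of the lymphocyte growth factor interleukin-7, and shares 105 exon bases with it. It had 0 counts in all 16 libraries without LPS, and the 4 WT LPS libraries had 18.9, 18.9, 18.9 and 19.9 CPM. The WT LPS group held 1445 counts, which is at least 498-fold higher than the 3 counts that a group total of 0 allows. Il7 itself rose by 2.43 from 0.791 to 4.28 CPM, and the counting did not use strand, so reads in the shared exon bases cannot be told apart. Gm32089, a lincRNA 3.59 kb from Scamp1 on the same strand, was at 0.1, 0, 0.0513 and 0.107 CPM in WT control and at 55.8, 67, 64.5 and 61 in WT LPS, and the groups did not overlap.

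Other rises lay beside genes that themselves react strongly to LPS. Gm34643 (chromosome 14 from 103250311 to 103261893, plus strand) lies 22.5 kb from Acod1 and went from 0.477 ± 0.252 to 32 ± 0.785 CPM (6.06 ± 0.16), while Acod1 rose by 9.35. Gm14023, which shares 222 exon bases with Il1a on the opposite strand, went from 0.142 ± 0.0829 to 13.5 ± 1.74 CPM (6.52 ± 0.26). Il1a encodes the alarm cytokine interleukin-1 alpha and rose by 15.78 in the same libraries. Counting did not use strand, so Il1a reads in the shared bases cannot be told apart from those of Gm14023. The same limit holds for every pair below that shares exon bases. Gm5345 (chromosome 8 from 41306865 to 41308064, minus strand) starts 7.37 kb from Slc7a2, a transporter of arginine, which rose by 9.90. Its WT control libraries were at 0.701, 0.601, 0.308 and 0.427 CPM and its WT LPS libraries at 33.9, 34.3, 35.1 and 33.8 CPM, a change of 6.05 ± 0.15. Gm19026, a processed pseudogene of the microtubule-end protein gene Camsap1, rose from 0.0518 ± 0.0726 to 22.9 ± 3.17 CPM, whereas the nearest gene, St18 at 45.9 kb, moved by 0.66.

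The promoter of Gm34643 is shown because the transcript starts near Acod1 and holds a match to the letters TGANTCA of AP-1, a factor that LPS signalling activates; the match, in capitals, ends 188 bases before the start (RefSeq, GRCm38.p6, chr14:103012625-103012924, plus strand).
Gm34643: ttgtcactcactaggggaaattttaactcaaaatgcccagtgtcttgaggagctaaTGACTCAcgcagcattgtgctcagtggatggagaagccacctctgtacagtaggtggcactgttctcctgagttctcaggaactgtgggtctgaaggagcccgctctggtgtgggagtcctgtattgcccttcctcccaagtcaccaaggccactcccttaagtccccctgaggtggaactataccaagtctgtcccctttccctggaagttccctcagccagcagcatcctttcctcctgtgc
Promoter windows from 250 bases before to 50 after a start were found in the RefSeq table for 138 of the 216 transcripts (163 windows). AP-1 letters were in 7 of the 163 windows (4.29%, against 7.81% of all 32851 windows), and the NF-kB letters (GGGA, any base, TT, any base, CC) were in 2 (1.23%, against 1.2%), on either strand. A match describes the letters and shows no bound factor.

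The transcripts that fell furthest with LPS were 5031425F14Rik, a lincRNA 107 kb from Prex1 (13.6 ± 1.46 to 0.66 ± 0.214 CPM, -4.35 ± 0.18), and 2510016D11Rik, a TEC transcript inside Tpcn1 on the same strand (22.1 ± 1.23 to 1.12 ± 0.205 CPM, -4.29 ± 0.12). Tpcn1, a cation channel of endosomes and lysosomes, fell by 2.79 as well. C030034L19Rik, whose exons share 43.6% of their bases with the opposite strand of Zfp704, went from 5.49 ± 0.479 to 0.295 ± 0.192 CPM (-4.21 ± 0.22), and Zfp704 fell by 2.20. Gm43305 on chromosome 14 went from 20.2 ± 0.917 to 1.34 ± 0.285 CPM (-3.90 ± 0.14). None of these 4 transcripts overlapped between WT control and WT LPS libraries.

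F630028O10Rik (chromosome X from 95283498 to 95287267, plus strand) is the primary transcript of miR-223, a microRNA of the myeloid lineage that limits inflammasome and neutrophil responses. Its mature products are shown because the host transcript reports on their production and not on their level: both arms are read from the RefSeq hairpin on the plus strand of GRCm38.p6, with the seed (bases 2 to 8) in capitals.
mmu-miR-223-5p, chrX:96242842-96242864: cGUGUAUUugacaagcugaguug
mmu-miR-223-3p, chrX:96242884-96242905: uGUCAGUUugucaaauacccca
The arms carry different seeds, GUGUAUU and GUCAGUU. The WT control libraries had 30, 35, 35.9 and 38.5 CPM of the host and the WT LPS libraries 2.38, 3.46, 1.66 and 2.7 CPM (-3.78 ± 0.12, adjusted p = 3.2e-31). Dexamethasone alone raised it to 68.2, 68.5, 72.1 and 73.9 CPM (1.02 ± 0.076). With both agents it was at 17, 15.1, 16.2 and 20.3 CPM in WT, above every WT LPS library and below every WT control library. In KO cells with both agents it was at 4.03, 6.71, 4.99 and 7.3 CPM, below every WT library of that treatment (-1.57 ± 0.11, and -1.62 in a fit with a lane term). Msn, the nearest gene with a standard name at 71.3 kb, rose by 0.69 with LPS.

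**Figure D2:**
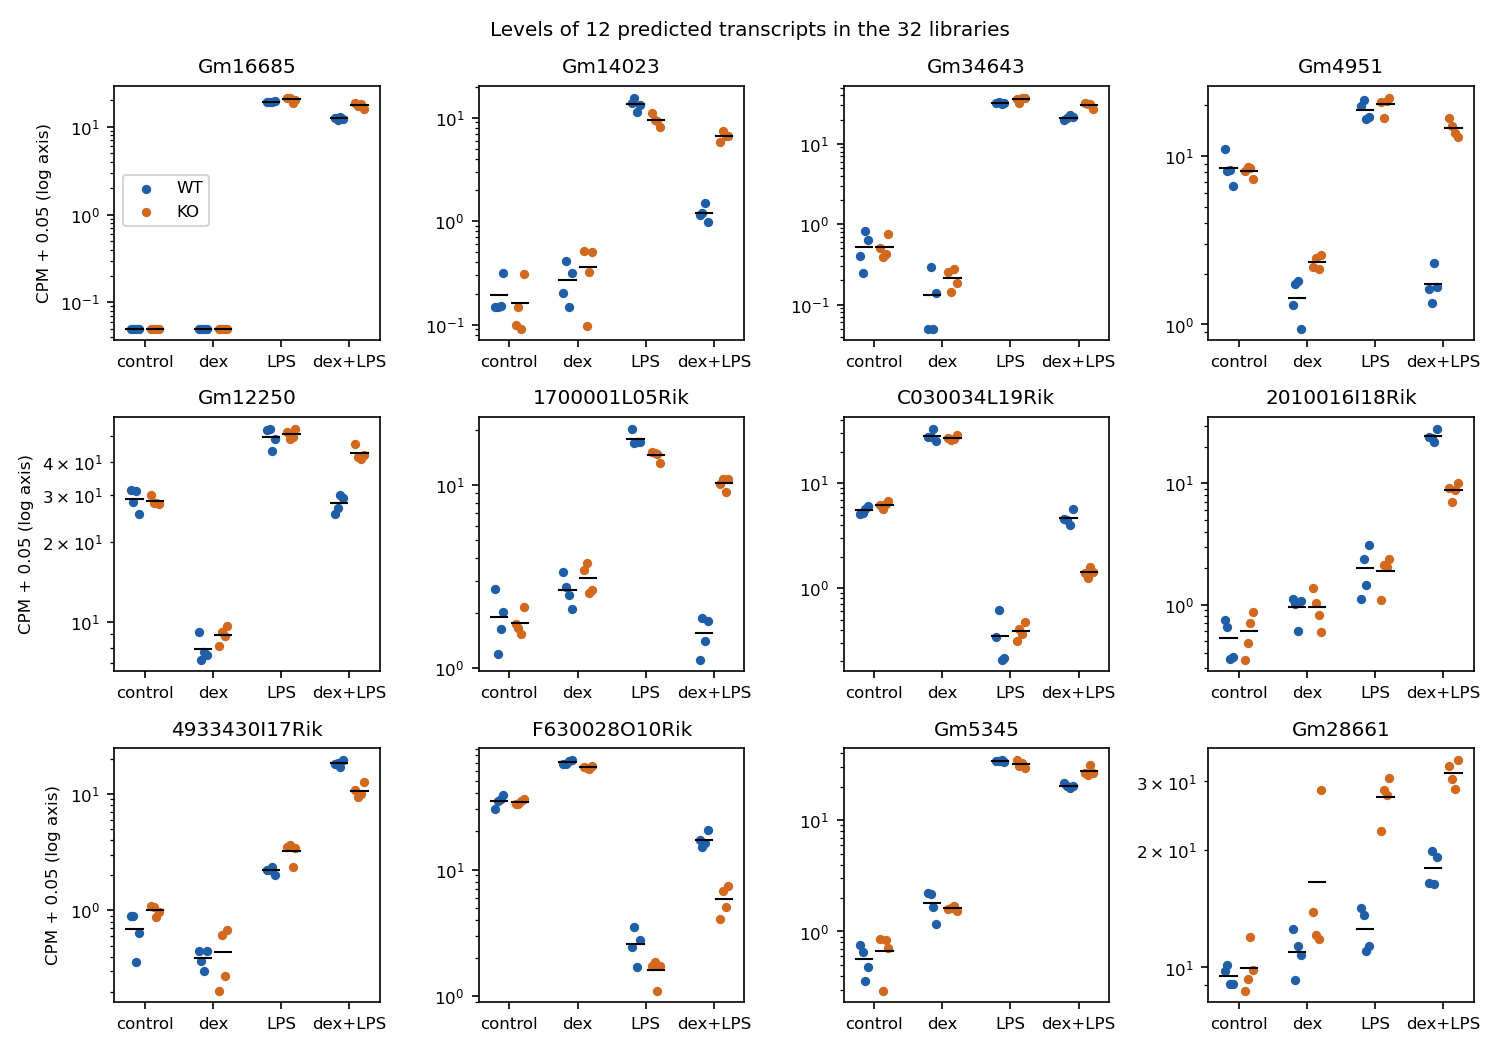
Level of 12 predicted transcripts in each of the 32 libraries (points, scaled CPM plus 0.05 on a log axis; WT blue, KO orange) with the group mean as a line. F630028O10Rik, the miR-223 host, is lowest with LPS (1.55 CPM in KO, 2.55 in WT) and highest with dexamethasone (70.7 in WT), and Gm28661 has 1 KO dexamethasone library at 28.5 CPM above the other 3.

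Dexamethasone on unstimulated WT cells raised 61 of the 216 transcripts and lowered 63 (background over all tested genes 49.4% called, 21.2% higher and 28.2% lower). Only 7 that rose and 14 that fell changed at least 2-fold, near the background of 3.57% and 6.07%. The clearest rise was C030034L19Rik, from 5.01, 5.21, 5.64 and 6.08 CPM in control to 27.5, 27.6, 33.3 and 25.1 with the steroid (2.37 ± 0.097). 4930523C07Rik rose from 3.23 ± 0.244 to 12.3 ± 0.861 CPM (1.93 ± 0.13), and 1700017B05Rik from 88.1 ± 2.06 to 181 ± 6.61 CPM (1.04 ± 0.045). In WT, C030034L19Rik and 4930523C07Rik were above 10 CPM only with dexamethasone alone, so part of their rises follows from the choice. Gm5345 rose by 1.76 ± 0.25 from 0.509 to 1.75 CPM, and its neighbour Slc7a2 by 1.80. Gm38244 gave 28 counts against 3 over the 4 libraries of each group, a ratio of 8.36 (95% counting interval 2.58 to 42.9), and 5830415G21Rik rose by 1.16 ± 0.26 to 1.45 CPM.

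The transcripts that dexamethasone lowered included relatives of the interferon-inducible GTPases, proteins that attack the vacuoles of intracellular microbes. Gm4951 went from 10.9, 8.11, 8.16 and 6.62 CPM to 1.26, 1.68, 1.75 and 0.892 (-2.59 ± 0.17). Gm12250, listed in RefSeq with the synonym Irgb10, went from 31.2, 28.3, 31.1 and 25.3 CPM to 9.12, 7.15, 7.65 and 7.49 (-1.89 ± 0.081). The groups did not overlap for either. Of the 7 GTPase relatives listed for this work 4 reached the limit of 10 CPM, and all 4 fell with dexamethasone alone: Gm4070 by 0.99 and Gm5431 by 0.80 besides these. With LPS the 4 diverged in WT: Gm4951 (1.15 ± 0.12) and Gm12250 (0.78 ± 0.065) rose, Gm5431 fell from 87.9 ± 9.09 to 22.4 ± 1.83 CPM, and Gm4070 was not called (26.9 ± 2.16 and 29.4 ± 2.83 CPM). The nearest standard-named neighbours of Gm4951 and Gm5431 belong to the same family: Iigp1 fell with dexamethasone by 4.34 and Irgm1 by 1.75.

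The promoter of Gm12250 is shown because it held the letters of the interferon response element (GAAA, any 2 bases, GAAA, on either strand) at 2 places. Matches are in capitals, and the first ends 82 bases before the start (chr11:58183593-58183892, plus strand, RefSeq, GRCm38.p6). The promoter of F630028O10Rik held them once, ending 65 bases before the start (chrX:96239676-96239975, plus strand).
Gm12250: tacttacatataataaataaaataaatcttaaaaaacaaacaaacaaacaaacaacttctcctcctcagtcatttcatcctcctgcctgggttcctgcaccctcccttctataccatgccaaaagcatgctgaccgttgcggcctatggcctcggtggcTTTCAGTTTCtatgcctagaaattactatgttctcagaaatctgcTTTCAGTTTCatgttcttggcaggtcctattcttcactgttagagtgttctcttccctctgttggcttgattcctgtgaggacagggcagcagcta
F630028O10Rik: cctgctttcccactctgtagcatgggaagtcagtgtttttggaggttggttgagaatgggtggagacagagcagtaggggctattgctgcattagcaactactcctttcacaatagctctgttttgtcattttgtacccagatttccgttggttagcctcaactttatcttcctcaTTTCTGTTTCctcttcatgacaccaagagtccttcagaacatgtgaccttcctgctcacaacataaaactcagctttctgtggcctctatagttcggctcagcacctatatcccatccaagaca
These letters were in 5 of the 163 windows (3.07%, against 3.44% of all windows). Gm12250 fell and F630028O10Rik rose with dexamethasone alone, and with LPS Gm12250 rose and F630028O10Rik fell, so windows with the same letters sat before transcripts that moved in opposite directions. The letters of the glucocorticoid response element (G, any base, ACA, any 3 bases, TGT, any base, C) were in none of the 163 windows, against 0.475% of all windows.

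Other transcripts that dexamethasone lowered were F830208F22Rik, which shares 206 exon bases with Pstpip2 on the opposite strand (0.928 ± 0.313 to 0.239 ± 0.0338 CPM, -1.93 ± 0.33), Gm30329 (18 ± 1.23 to 6.52 ± 0.995 CPM, -1.47 ± 0.12) and Gm10282 (11.7 ± 0.968 to 4.29 ± 0.452 CPM, -1.44 ± 0.14). In WT, Gm30329 was above 10 CPM only in control cells, so part of its fall follows from the choice. Gm10282 lies 13.8 kb from Klf2, a transcription factor that keeps myeloid cells quiescent and that moved by -0.24.

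When dexamethasone was given together with LPS, 81 transcripts were higher and 86 lower than with LPS alone in WT cells (background over all tested genes 69.2% called, 34.6% higher and 34.5% lower). At least 2-fold changes were seen for 25 that rose and 24 that fell (background 10.2% and 12%). On chromosome 3, 2 transcripts that lie 1.11 kb apart rose together: 2010016I18Rik (106389298 to 106393229, minus strand) and Gm38244 (106385599 to 106388184, plus strand). The WT LPS libraries had 1.07, 2.33, 1.4 and 3.03 CPM of 2010016I18Rik, and those with both agents had 23.9, 23.5, 21.9 and 28.3 (3.66 ± 0.18). Gm38244 went from 0.973 ± 0.354 to 11.1 ± 1.87 CPM (3.50 ± 0.21). Both transcripts reached the limit of 10 CPM only in WT cells with both agents, so part of these rises follows from the choice. Dennd2d, an activator of Rab GTPases in membrane traffic that shares 407 exon bases with 2010016I18Rik, rose by 3.09 in this comparison. With LPS alone Dennd2d fell by 2.53 while Gm38244 rose (74 counts against 3, a ratio of 25.5, 95% counting interval 8.4 to 127).

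C030034L19Rik was again among the largest rises, from 0.292, 0.567, 0.156 and 0.165 CPM with LPS to 4.55, 4.43, 3.99 and 5.67 with both agents (3.98 ± 0.23), while Zfp704, whose exons it overlaps, fell by 1.63. 4930523C07Rik rose from 0.614 ± 0.105 to 6.87 ± 0.693 CPM (3.48 ± 0.19) and Gm43305 from 1.34 ± 0.285 to 12.4 ± 1.29 CPM (3.20 ± 0.15). 4933430I17Rik, whose start lies 301 bases from that of the DNA polymerase subunit gene Pole3 on the opposite strand, had 2.19, 2.16, 2.29 and 1.98 CPM with LPS and 17.9, 18.3, 17.1 and 19.7 with both (3.08 ± 0.14). 4933430I17Rik reached the limit of 10 CPM only in WT cells with both agents, so part of its rise follows from the choice. Pole3 rose by 0.38.

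Several transcripts that LPS had raised fell when dexamethasone was present. 1700001L05Rik (chromosome 15 from 83238048 to 83251483, minus strand), a lincRNA 3.6 kb from Arfgap3, had 20.3, 16.9, 17.2 and 17.2 CPM with LPS and 1.06, 1.84, 1.35 and 1.76 with both agents (-3.56 ± 0.15). Arfgap3 moved by -0.22. Gm14023 fell by 3.53 ± 0.18 from 13.5 to 1.16 CPM, together with Il1a, which fell by 4.81. Gm4951 had 19.9, 21.5, 16.6 and 16.9 CPM with LPS and 1.57, 1.29, 2.27 and 1.61 with both (-3.49 ± 0.15). C130050O18Rik went from 25.3 ± 1.32 to 5.73 ± 0.773 CPM (-2.14 ± 0.094). In WT, 1700001L05Rik, Gm14023, Gm4951 and C130050O18Rik were above 10 CPM only with LPS alone, so part of these falls follows from the choice. The antisense transcript Gm30329, which LPS alone had lowered (-1.80 ± 0.13), fell further, from 5.15 ± 0.632 to 0.301 ± 0.227 CPM (-4.03 ± 0.26).

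The effect of dexamethasone in the presence of LPS differed from its effect alone for 150 transcripts in WT (interaction, 77 higher and 73 lower, background over all tested genes 60.4% called, 32% and 28.4%). 4933430I17Rik moved by -0.91 with dexamethasone alone and by 3.08 under LPS, a difference of 3.99 ± 0.39. Gm43305 moved by -0.50 and 3.20 (difference 3.69 ± 0.18) and 2010016I18Rik by 0.89 and 3.66 (2.77 ± 0.48). The other way, 1700001L05Rik moved by 0.51 and -3.56 (-4.07 ± 0.25), Gm14023 had a difference of -4.21 ± 0.64, and Gm21399, a copy of the peroxiredoxin gene Prdx1, moved by -0.36 and -3.13 (-2.76 ± 0.29). In WT, 4933430I17Rik and 2010016I18Rik were above 10 CPM only with both agents, and 1700001L05Rik and Gm14023 only with LPS alone. Part of these differences therefore follows from the choice.

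The KO cells answered LPS with nearly the same changes: 105 of the 216 transcripts rose and 85 fell (background over all tested genes 76.1% called, 36.8% higher and 39.3% lower), and across the transcripts the KO change against the WT change had a slope of 0.99. In KO cells this comparison crosses lanes, and a fit with a lane term called 154. Gm16685 went from 0 counts in KO control to 20.5 ± 1.25 CPM with LPS, at least 629-fold higher. Gm32089 had 1 count in KO control and 4944 with LPS, a ratio of 6077 (95% counting interval 1090 to 240072). Dexamethasone alone raised 64 and lowered 62 in KO cells (background 48.5% called, 20.9% higher and 27.6% lower), with a slope of 0.83 against WT.

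The picture differed when dexamethasone was combined with LPS. In KO cells 47 transcripts were higher and 49 lower with both agents than with LPS alone, 96 in all (background over all tested genes 38.1% called, 20.8% higher and 17.3% lower). In KO 11 rose at least 2-fold and 0 fell that far (background 3.54% and 0.374%), whereas 24 fell that far in WT. The slope of the KO change against the WT change was 0.39 over the 216 transcripts, and 0.35 over all 14427 genes. The change was smaller in KO than in WT for 196 of 216 transcripts and for 12326 of the 14427 genes, so the transcripts followed the genes at large. The genotype difference of this effect was called for 109 of them, 59 more positive and 50 more negative in KO (background over all tested genes 45.4% called, 23.9% and 21.5%). Each effect in this difference is taken within 1 lane, and a fit with a lane term called 108.

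The transcripts with the largest positive genotype difference were among those that dexamethasone lowered most in LPS-treated WT cells. The difference subtracts the WT effect, so with smaller KO changes this overlap follows from how it is computed. 1700001L05Rik had 15.2, 15, 14.8 and 13.1 CPM with LPS and 10.1, 10.7, 9.1 and 10.7 with both agents in KO cells, a fall of only 0.52 against 3.56 in WT (difference 3.04 ± 0.2, adjusted p = 1.6e-18). Gm4951 went from 20.2 ± 2.43 to 14.6 ± 1.68 CPM in KO (difference 3.03 ± 0.19), and Gm30329 from 4.35 ± 0.792 to 3.21 ± 0.745 CPM (difference 3.59 ± 0.33). Libraries with and without dexamethasone overlapped in KO for both of the latter.

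The 3 transcripts with the most negative genotype difference rose in WT and rose less in KO. They were picked by that difference, and 2010016I18Rik and 4933430I17Rik reached the limit of 10 CPM only on WT libraries. C030034L19Rik reached 1.33, 1.21, 1.53 and 1.38 CPM in KO cells with both agents, against 3.99 to 5.67 in WT (difference of the effects -1.98 ± 0.46). 2010016I18Rik reached 9.04, 7.02, 8.82 and 10.1 CPM (-1.42 ± 0.29) and 4933430I17Rik 10.7, 9.39, 9.97 and 12.5 CPM (-1.34 ± 0.21). 4930523C07Rik did not pass the test of the difference (3.48 in WT and 2.95 in KO). For reference Fkbp5, which the glucocorticoid receptor switches on in most tissues, reached 680 (WT) and 262 CPM (KO) under both agents, while under dexamethasone alone it reached 877 and 836 CPM.

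**Figure D3:**
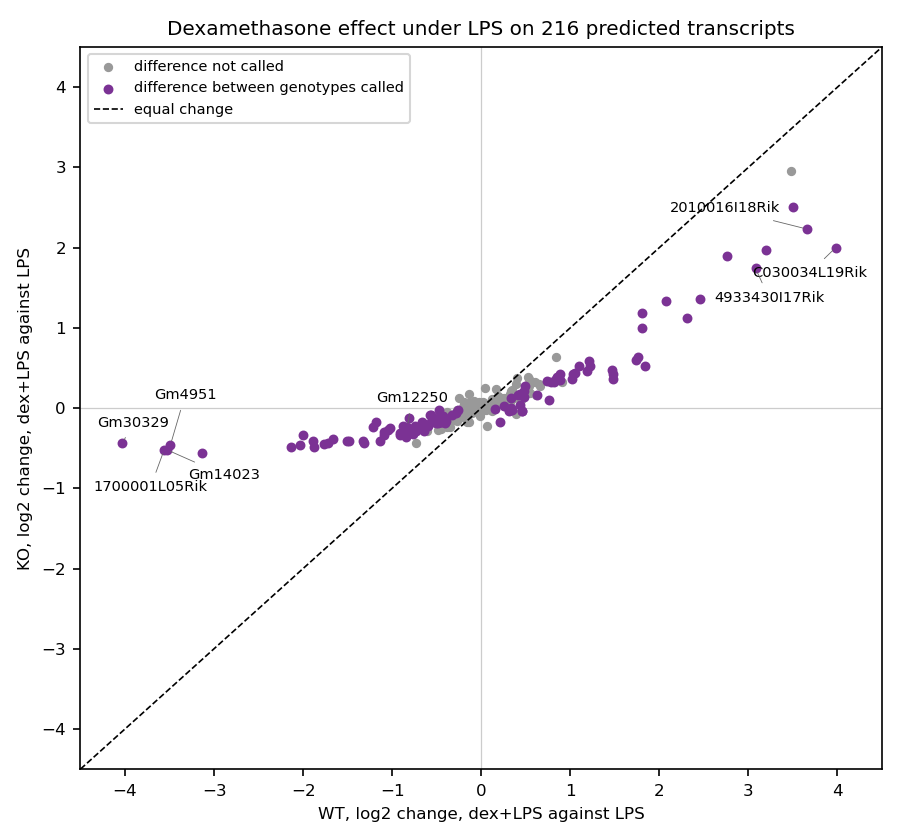
Change of each of the 216 transcripts on adding dexamethasone to LPS, in WT (x axis) and KO (y axis), both log2; purple points passed the test of the difference between genotypes and the dashed line marks equal change. Falls in WT reach -4.03 (Gm30329) whereas no KO change is a fall of 2-fold or more, and rises are smaller in KO for most points.

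Direct comparison of KO with WT called few transcripts without LPS. In control cells 1700017B05Rik was higher in KO (104 ± 7.74 against 88.1 ± 2.06 CPM, 0.24 ± 0.046) and Gm43305 lower (15.7 ± 0.823 against 20.2 ± 0.917 CPM, -0.36 ± 0.091), 2 of 216 against a background of 0.541% of all tested genes (0.243% higher and 0.298% lower). The call of Gm43305 was lost on leaving out any 1 of the 8 libraries. With dexamethasone alone 1 was called (background 0.901%, 0.541% higher and 0.36% lower): Gm28661, a copy of the mitochondrial gene mt-Co2, where KO libraries had 13.8, 12.1, 11.8 and 28.5 CPM and WT libraries 12.5, 9.23, 11.3 and 10.7. The groups overlapped, and without KO dexamethasone replicate 4, the only lane 2 library of that group, the difference was 0.21 and not called. The count of 1 became 8 with the compared groups fitted alone, 4 with no filter on low counts, 2 by DESeq2, and 0 both with a lane term and on lane 3 libraries alone, where 22 and 24 of the 216 had an unadjusted p under 0.05 in edgeR. The genotype difference of the dexamethasone effect without LPS was called for 0 of the 216 and for 0% of all tested genes by edgeR, and for 0 of the 216 by DESeq2. An unadjusted p under 0.05 in edgeR was found for 13 of the 216.

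With LPS, 14 transcripts were higher and 7 lower in KO (21 of 216, background over all tested genes 10.2%, 4.66% higher and 5.51% lower). Genotype and lane cannot be told apart here by groups alone. The 2 with the largest difference were copies of highly expressed genes: Gm28661 (27.3 ± 3.51 against 12.5 ± 1.62 CPM, 1.12 ± 0.15) and Gm4332, a copy of the ribosomal protein gene Rps20 (13.7 ± 1.11 against 6.52 ± 0.495 CPM, 1.07 ± 0.14). In the KO dexamethasone group, where 3 libraries are from lane 3 and 1 from lane 2, Gm4332 was at 10.1, 8.63 and 8.56 CPM in the first and 18 in the second. A fit with a lane term gave -0.07 for Gm28661 and 0.08 for Gm4332 with LPS, and called 0 of the 216, of which 22 had an unadjusted p under 0.05 in that edgeR fit. The lane term rests on KO dexamethasone replicate 4, the only lane 2 library in a group with lane 3 libraries. The values with a lane term therefore lean on that library. Gm4332 reached the limit of 10 CPM only on KO libraries, so part of its difference follows from the choice. Rps20 itself moved by -0.16 and mt-Co2 by 0.71 between the genotypes in LPS-treated cells.

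Other calls with LPS were smaller: 4933430I17Rik (0.56 ± 0.18, but -0.42 and not called with a lane term), F630028O10Rik (-0.70 ± 0.23), Gm26947 (-0.52 ± 0.15) and Gm14023 (-0.50 ± 0.13). Leaving out 1 library ended the call of 4933430I17Rik for WT LPS replicates 1, 2 and 4 and KO LPS replicates 1, 2 and 4, and that of F630028O10Rik for WT LPS replicates 2 and 4 and KO LPS replicates 1, 3 and 4. Gm26947 lost its call without KO LPS replicate 3 or 4, and Gm14023 without WT LPS replicate 2. The count of 21 fell to 12 without KO LPS replicate 3 and to 13 without replicate 4. The genotype difference of the LPS effect was called for 4 transcripts (background 3.72%, 2.07% higher and 1.64% lower): Gm4332 (1.14 ± 0.2), Gm28661 (1.05 ± 0.23), 1600014C10Rik (0.27 ± 0.078) and 2010111I01Rik (-0.18 ± 0.052). With a lane term edgeR called 0 of the 216 (19 at an unadjusted p under 0.05), Gm28661 turned to -0.20 and Gm4332 was at 0.12. DESeq2 called 11, and edgeR with no filter on low counts 7. Without WT control replicate 1 or KO LPS replicate 4 the difference was called for 2.

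With both agents 135 transcripts differed between KO and WT, 74 higher and 61 lower in KO (background over all tested genes 56.4% called, 28.5% higher and 27.9% lower), and 82 did in a fit with a lane term. The largest rises were Gm30329 (3.34 ± 0.28), Gm4951 (3.13 ± 0.16) and 1700001L05Rik (2.74 ± 0.16), with 3.30, 2.94 and 3.02 in the fit with a lane term. The largest falls were C030034L19Rik (-1.78 ± 0.16), F630028O10Rik (-1.57 ± 0.11) and Gm38244 (-1.54 ± 0.17). With a lane term Gm38244 (-1.42) was no longer called. KO and WT libraries did not overlap for any of these 6. Gm38244 reached the limit of 10 CPM only on WT libraries, so part of its difference follows from the choice.

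Of the 23 pseudogenes all had a best match among protein-coding transcripts of GENCODE vM21 by nucleotide alignment, and 16 matched at 95% identity or more over at least 80% of their length. Reads from near-identical copies are hard to assign, so these counts are uncertain. Several tracked their match closely, and the pairs named here were chosen after their values were seen. With LPS in WT Gm6560 moved by 1.60 and its match Pkm, the glycolytic pyruvate kinase, by 1.63. Gm6900 and the translation factor gene Eif1 moved by 1.54 and 1.55, Gm4204 and the histone chaperone gene Nap1l1 by -1.87 and -1.81, and Gm15500 and the ribosomal protein gene Rpl5 by -0.94 and -0.93. Gm3788 and Tmsb10, which encodes the actin-binding thymosin beta 10, moved by 0.97 and 0.96 with LPS and by -1.21 and -1.20 with dexamethasone. Gm13456, a copy of the elongation factor gene Eef1a1, fell with LPS from 18.6 ± 1.66 to 2.33 ± 0.377 CPM (-2.99, Eef1a1 -2.80).

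Other pseudogenes went their own way. Gm5345 rose by 6.05 with LPS, and Gapdh, the gene it copies, by 2.78. Gm5345 rose with dexamethasone (1.76) and Gapdh fell (-0.32), with Gm5345 in step with its neighbour Slc7a2 (1.80). Gm19026 rose by 8.64 and Camsap1 by 0.42. A second copy of Eef1a1, Gm6548, rose by 0.54 with LPS while Eef1a1 fell by 2.80, and Gm15931 fell by 0.73 when dexamethasone was added to LPS in WT while its match Pirb rose by 0.65.

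The coding stretches below show how far reads could tell a copy from its source (sequences from the GENCODE vM21 transcripts, differing bases in capitals). Gm3788 and Tmsb10 are identical over all 135 coding bases.
Gm3788: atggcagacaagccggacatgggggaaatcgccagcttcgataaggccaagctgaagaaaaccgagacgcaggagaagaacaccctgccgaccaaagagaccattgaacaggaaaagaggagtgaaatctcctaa
Gm6900 and Eif1 differ at 7 of 342 coding bases, with 1 in the first 150, C135T (the source base, its position from the A of the start codon, then the base in the copy).
Gm6900: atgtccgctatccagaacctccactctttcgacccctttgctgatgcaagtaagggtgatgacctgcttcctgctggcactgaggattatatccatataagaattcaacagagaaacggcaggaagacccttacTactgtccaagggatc
Eif1: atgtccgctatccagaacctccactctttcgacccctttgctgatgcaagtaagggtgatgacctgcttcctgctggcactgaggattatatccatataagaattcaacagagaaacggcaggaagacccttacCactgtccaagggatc
Gm5345 and Gapdh differ at 78 of 999 aligned coding bases, 15 of them in the first 150.
Gm5345: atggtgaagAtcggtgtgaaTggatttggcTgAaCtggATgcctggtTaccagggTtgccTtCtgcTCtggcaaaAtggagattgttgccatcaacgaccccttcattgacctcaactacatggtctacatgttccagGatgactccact
Gapdh: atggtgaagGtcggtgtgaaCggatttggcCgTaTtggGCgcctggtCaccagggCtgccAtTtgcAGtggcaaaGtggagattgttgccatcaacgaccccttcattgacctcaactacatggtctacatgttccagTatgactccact
On adding dexamethasone to LPS in WT, Gm3788 moved by -2.04 and Tmsb10 by -2.20, and Gm5345 by -0.74 and Gapdh by -1.40. Near-identical pairs also moved apart: Gm15922 matches Pira2 at 99.5% identity over its length and moved by -0.19 with LPS against -1.07, and by 0.44 against -0.04 on adding dexamethasone. Gm28661 matches mt-Co2 at 100% and moved by 0.40 with LPS against 0.02. The values of this pair were closer with dexamethasone alone (0.20 against 0.16) and on adding it to LPS (0.52 against 0.58). Differences within pairs were not tested.

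**Figure D4:**
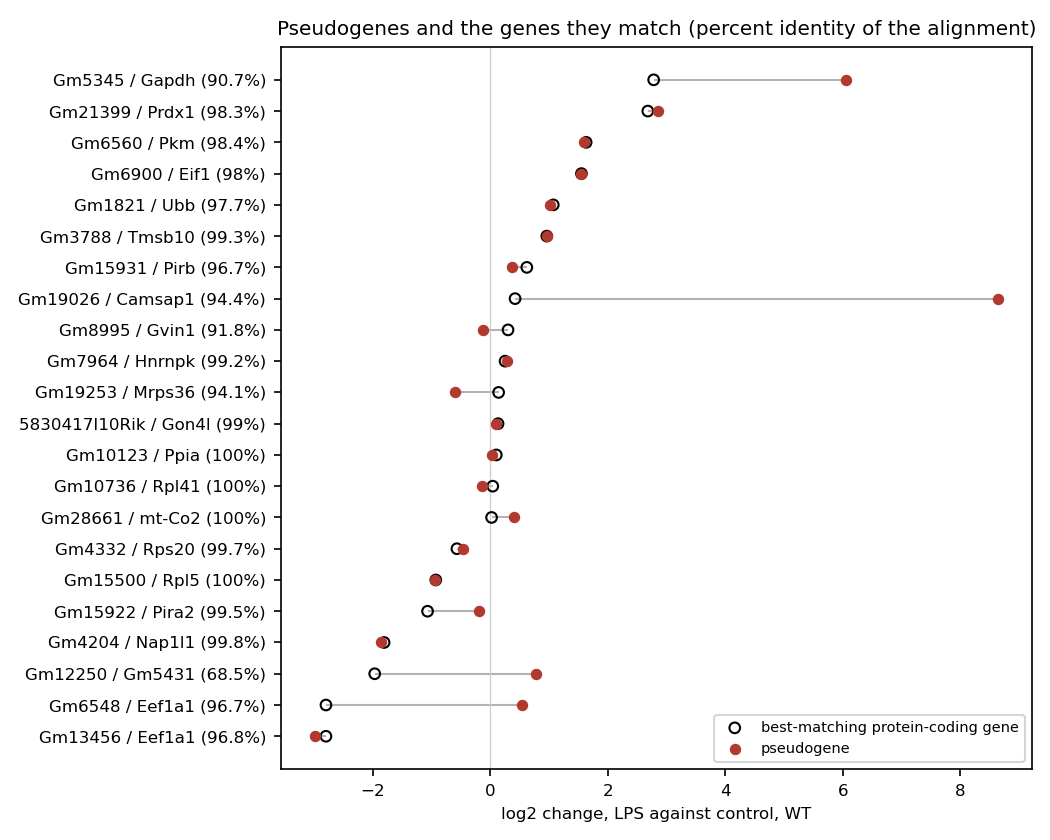
Log2 change with LPS in WT cells of 22 pseudogenes (filled) and of the protein-coding gene each matches best (open), with the percent identity of the alignment; Gm21926, whose match was not tested, is left out. Many pairs lie close together, such as Gm6560 with Pkm (1.60 and 1.63), whereas Gm19026 (8.64 against 0.42 for Camsap1) and Gm6548 (0.54 against -2.80 for Eef1a1) lie apart.

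Among the other listed families, 2 of 6 relatives of paired immunoglobulin-like and SIRP-like receptors, which tune activation of myeloid cells, reached the limit. Gm14548 fell with LPS in WT from 24.1 ± 3.55 to 5.47 ± 0.466 CPM (-2.14 ± 0.096), as did its neighbour Lilra6 at 10.2 kb (-1.82), and Gm15922 moved by -0.19 with overlapping libraries. Of 6 small mitochondrial proteins 3 reached it. Micos13 (2410015M20Rik), a part of the complex that shapes the inner membrane, fell with LPS (-0.29 ± 0.068) and rose on adding dexamethasone to LPS from 20.4 ± 0.927 to 43.7 ± 1.44 CPM (1.10 ± 0.064), with 27.5 ± 2.3 in KO. The 1810058I24Rik level was 85.8 ± 1.84 CPM in WT control and 46.9 ± 2.63 with both agents, and Mtres1 (1700021F05Rik), a mitochondrial transcription factor of the stress response, stayed between 7.62 and 13.3 CPM. None of 6 SP100 and SP140 relatives, 3 Ifit relatives or 2 transcripts overlapping ribosomal RNA genes met the rule.

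The highest mean levels over all libraries were those of 2610507B11Rik (516 CPM) and 5031439G07Rik (460 CPM), both protein coding. Each fell with LPS in WT, from 660 ± 19.5 to 326 ± 30.4 CPM and from 684 ± 11.9 to 288 ± 4.03 CPM. The lincRNA Norad (2900097C17Rik), which keeps chromosomes stable by binding Pumilio proteins, hardly moved, with group means of 203 to 224 CPM. It was followed by 9530068E07Rik (204 CPM), Aopep (2010111I01Rik, an aminopeptidase, 197 CPM), Gm20559 (160 CPM), 2510039O18Rik (154 CPM) and 1700017B05Rik (152 CPM). Gm20559 fell with dexamethasone from 162 ± 11.9 to 102 ± 2.21 CPM and rose from 170 ± 12.3 to 213 ± 11.5 CPM when dexamethasone was added to LPS. Samd9l, an interferon-inducible gene 26.1 kb away, fell in both (-0.90 and -0.77). These CPM are not divided by transcript length, so their order is one of read numbers.

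RefSeq gives 21 of the 216 a standard name, a list drawn up after the values were seen. The examples below were picked from it in the same way. Morrbid (Gm14005), a long non-coding RNA known for setting the life span of short-lived myeloid cells through its neighbour Bcl2l11, had 2.86, 2.05, 1.54 and 1.97 CPM in WT control and 29.8, 30, 35.3 and 29.7 with LPS (3.88 ± 0.12). It was at 15.1, 14.7, 13.1 and 15.7 CPM with both agents in WT. Bcl2l11, 15.8 kb away and a trigger of cell death, moved by -0.30 with LPS and by -1.74 on adding dexamethasone. Radx (D330045A20Rik), which acts at stalled replication forks, rose by 1.84 with LPS and by a further 1.84 on adding dexamethasone. Shfl (A230050P20Rik), an antiviral factor that blocks ribosomal frameshifting, fell by 1.11 with LPS and 0.29 with dexamethasone.

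The nearest tested gene with a standard name lay farther than 5 kb for 96 of the 216 transcripts. Exons were shared for 44 (38 on opposite strands and 6 on the same), and 11 lay inside a gene body without shared exon bases. Without overlap, 21 had a start within 1 kb of an opposite-strand start, or 35 when transcripts that overlap the gene are counted too. A further 27 lay within 5 kb on the same strand and 17 on the opposite strand. Across the 216 pairs the LPS changes of transcript and neighbour in WT had a Pearson r of 0.387 and a Spearman rho of 0.29. Over all 14427 genes and their nearest tested gene r was 0.305. There the nearest gene could have any name, so these pairs were not formed in the same way. It was 0.565 over the 44 pairs that share exon bases, where reads in those bases could affect both counts, and 0.307 without them. The part of such reads in this was not tested. Pairs are not independent, since all come from the same libraries and neighbours may share reads or base composition.

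Where both were called with LPS in WT, transcript and neighbour moved the same way in 97 of 161 pairs (60.2%, against 63.2% for all genes). The share was 56 of 81 (69.1%, against 66.5%) with dexamethasone and 84 of 132 (63.6%, against 62.1%) on adding dexamethasone to LPS. For the 96 transcripts farther than 5 kb it was 35 of 69 with LPS (50.7%). For the 35 pairs with starts within 1 kb on opposite strands it was 17 of 24 with LPS (70.8%). In these 35 pairs it was 10 of 17 with dexamethasone (58.8%) and 15 of 18 on adding dexamethasone to LPS (83.3%). Some of these 35 pairs overlap and may share reads, and the subsets were not tested against each other. As a set, these transcripts moved with the nearest gene about as often as any gene did, though only their own neighbours were limited to standard names. Single pairs went both ways: Gm5345 with Slc7a2 and Gm14023 with Il1a rose and fell together in LPS and on adding dexamethasone, while Gm38244 rose with LPS as Dennd2d fell, and Morrbid rose as Bcl2l11 fell. Gm14023 and Il1a share exon bases, so reads in them cannot be told apart.

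**Figure D5:**
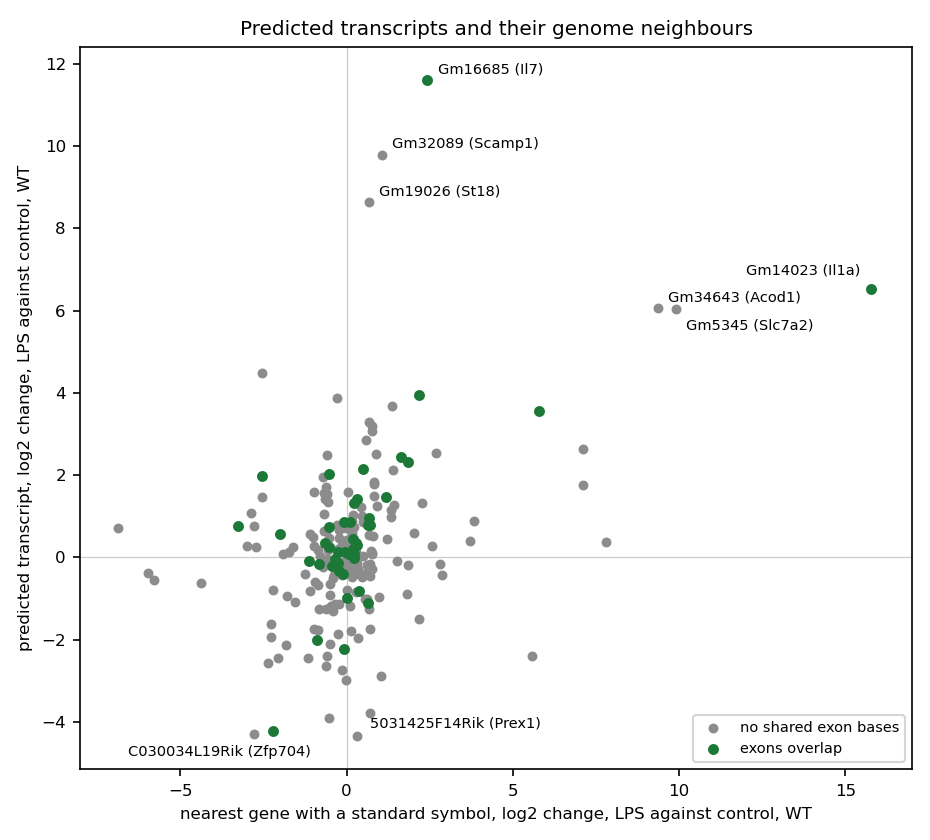
Log2 change with LPS in WT of each of the 216 transcripts (y axis) against that of its nearest tested gene with a standard symbol (x axis); green points share exon bases. Gm14023 (6.52) lies with Il1a (15.78) at the upper right, while Gm16685, Gm32089 and Gm19026 rose far more than Il7 (2.43), Scamp1 (1.06) and St18 (0.66).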

How the data were processed

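RNA from 32 samples was sequenced. The deposited table holds read counts per gene, made by the authors with featureCounts 2.0.0 per the file headers, on paired reads over exons of GENCODE vM32 without use of strand (setting 0). STAR and the builds GRCm38 and mm10 are named per the submitters' processing notes, with no version of STAR given in the sources used here. Gene positions are those of the table and do not coincide with GRCm38.p6, so positions of sequences, which come from RefSeq on GRCm38.p6, are given apart. Symbols came from a GENCODE vM21 list: 52029 of 56953 identifiers matched, and the 4924 others hold 0.846% of counts, with 44 at 10 CPM or more. RefSeq matched 184 of the 216 transcripts by symbol or synonym.

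Counts were tested with edgeR 4.0.16 (R 4.3.3, limma 3.58.1): filterByExpr, TMM factors, 1 mean per group over all 32 libraries, quasi-likelihood tests of 14 contrasts and Benjamini-Hochberg adjustment over 14427 genes (24 residual degrees of freedom, biological coefficient of variation 4.36%). All 32 columns of counts were used. No pair of replicates was alike within sampling noise (chi-square per degree of freedom 2.02 to 17.4 over 48 pairs). On simulated counts for LPS against control in WT with 14427 genes, the test recovered 87% of 2-fold and 65% of 1.5-fold changes and called 8 unchanged genes.

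The neighbour of a transcript is the nearest tested gene with a standard symbol. Pseudogenes were matched to protein-coding transcripts with BLAST 2.17.0. Intervals and floors (3 counts per group) cover counting error only. Alternatives were RLE size factors, no filter, DESeq2 1.42.0, the compared groups fitted alone, a replicate block, a lane term without the merged library, leaving out each library, higher limits on level and, added after seeing the data, lane 3 libraries alone and transcripts chosen on the other genotype.

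The transcripts and lists were chosen with earlier results of these data known. Transcripts named are the 8 of highest mean, the 6 largest rises and falls of each WT treatment comparison among called transcripts whose groups do not overlap, the 3 largest in each genotype comparison, difference and interaction, the members of the family lists, the nearest neighbour of each, and those beside the limit of 10 CPM. Pseudogene pairs and transcripts with a standard RefSeq name beyond these were chosen after their values were seen.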

Additional observations from a re-analysis of the deposited data

Results flagged for a closer look

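A library stood apart from the other 3 of its group, by the gap to its nearest value over the whole range, in 11 of 148 groups of named transcripts, and chance gives about 1 in 20 such groups. Gm28661 was at 28.5 CPM in KO dexamethasone replicate 4 (the others 11.8 to 13.8), the only lane 2 library of that group. In WT LPS libraries, 1700001L05Rik was at 20.3 CPM in replicate 1 (16.9 to 17.2), 2010111I01Rik at 244 CPM in replicate 3 (220 to 222) and Gm16685 at 19.9 CPM in replicate 4 (18.9 in the others). In WT control libraries, 1700017B05Rik was at 91.2 CPM in replicate 2 (86.8 to 87.5), 9530068E07Rik at 187 CPM in replicate 4 (173 to 175) and Gm14023 at 0.267 CPM in replicate 4 (0.1 to 0.103). In WT libraries with both agents 9530068E07Rik was at 183 CPM in replicate 4 (189 to 190). In KO LPS libraries, 1700017B05Rik was at 128 CPM in replicate 4 (136 to 138) and 4933430I17Rik at 2.31 CPM in replicate 3 (3.37 to 3.57). In KO libraries with both agents 2900097C17Rik was at 222 CPM in replicate 3 (213 to 214).

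Effects that differed between groups by a test of the difference were the following. The LPS effect differed between genotypes for 4 transcripts: Gm4332 (1.14), Gm28661 (1.05), 1600014C10Rik (0.27) and 2010111I01Rik (-0.18). All KO libraries with LPS are from lane 2, 3 of the KO controls are from lane 3 and the fourth has no lane named. With a lane term 0 of the 216 were called by edgeR (19 at an unadjusted p under 0.05), and the differences were 0.12 for Gm4332, -0.20 for Gm28661, 0.33 for 1600014C10Rik and -0.14 for 2010111I01Rik. DESeq2 called 11. The call of 1600014C10Rik was lost without WT control replicate 1, WT LPS replicate 3 or 4, KO control replicate 3, or KO LPS replicate 2 or 4. That of 2010111I01Rik was lost without any 1 of 10 libraries: the 4 WT controls, WT LPS replicate 3, KO control replicates 1 and 3, and KO LPS replicates 2, 3 and 4. The effect of dexamethasone under LPS differed between genotypes for 109 transcripts, among them Gm30329 (3.59), 1700001L05Rik (3.04), Gm4951 (3.03), C030034L19Rik (-1.98), 2010016I18Rik (-1.42) and 4933430I17Rik (-1.34). The effect of dexamethasone in WT differed with and without LPS for 150 transcripts, among them 4933430I17Rik (3.99), Gm43305 (3.69), 2010016I18Rik (2.77), Gm21399 (-2.76), 1700001L05Rik (-4.07) and Gm14023 (-4.21).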

How the results depend on the processing

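Counts of called transcripts stayed within 1.5 times under RLE size factors, a limit of 10 CPM on the mean over all libraries (151 transcripts) and the choice on the other genotype, which rests on the same treatments. A limit of 20 CPM keeps 122 transcripts and, with fewer tested, called 108 (LPS, WT), 110 (LPS, KO), 78 (dexamethasone, WT), 77 (dexamethasone, KO), 100 (dexamethasone added to LPS, WT), 12 (KO against WT, LPS), 83 (KO against WT, both agents) and 93 (interaction). A lane term without the merged library called 1, 0, 0 and 82 for KO against WT in control, dexamethasone, LPS and both agents, and 0 for the genotype difference of the LPS effect; it turned 4933430I17Rik (-0.42) and Gm28661 (-0.07) for KO against WT with LPS, and Gm28661 (-0.20) for the genotype difference of the LPS effect. The term rests on KO dexamethasone replicate 4, the only lane 2 library in a group with lane 3 libraries. KO against WT with dexamethasone called 4 with no filter, 8 with the groups fitted alone, 2 by DESeq2 and 0 with lane 3 alone; with LPS, 10 with the groups fitted alone. The genotype difference of the LPS effect called 7 with no filter and 11 by DESeq2. The cause was not tested. Leaving out each library gave 183 to 188 (LPS, WT), 185 to 190 (LPS, KO), 114 to 123 (dexamethasone, WT), 119 to 126 (dexamethasone, KO), 159 to 164 and 80 to 92 (dexamethasone added to LPS, WT and KO), 1 to 1, 0 to 3, 12 to 19 and 124 to 128 (KO against WT in control, dexamethasone, LPS and both agents), 2 to 6, 0 to 0 and 104 to 110 (genotype differences of the LPS effect, the dexamethasone effect and the dexamethasone effect under LPS) and 143 to 152 (interaction). A replicate block changed no call of the 67 named values, called 191 for LPS in WT and left every count within 1.5 times. Whether the numbers pair the samples was not settled. Same-numbered libraries deviated with a median r of 0.00764 over 112 pairs, 0 of them above 0.1, against -0.00247 for different numbers. Yet 18 of 32 libraries correlated best with their own number, so the numbers may pair the samples weakly. Depth limits the transcripts with 0 to 3 counts per group.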
